A study of Homo sapiens with 9 samples.

Results

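The mRNA of 8 transcription factors that set intestinal identity was followed in undifferentiated Caco-2 cells (uCaco-2). The factors were taken by name, as the CDX genes CDX1 and CDX2, the HNF4 genes HNF4A and HNF4G, the GATA factors GATA4 and GATA6 and the Krüppel-like factors KLF4 and KLF5. They are 8 of the 60591 gene symbols in the count table, and 7 of them passed the filter on low counts. Caco-2 is a single human line from a colon adenocarcinoma, and uCaco-2 are its growing cells before they form a differentiated monolayer. Cells received 300 μM cobalt(II) chloride (CoCl2), 5 μM of an oxyquinoline derivative (OD) or neither for 24 h. DMSO was added at 0.5% to the control and CoCl2 media, and the OD medium carried DMSO from the compound's stock. Diluting that 10 mM stock to the final dose gives 0.05% DMSO, so if no more was added, OD and its lower DMSO cannot be told apart in the comparisons with OD. Both agents are used to stabilise hypoxia-inducible factor (HIF) without lowering oxygen. Each group had 3 libraries.

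CDX factors are homeobox proteins that specify the hindgut and keep gastric genes off. HNF4 factors are nuclear receptors that drive genes of lipid handling and the brush border, and GATA factors are zinc finger proteins, of which GATA4 marks the proximal small intestine. KLF4 and KLF5 bind like DNA sites and are known for opposite roles, since KLF5 is found in dividing crypt cells and KLF4 in differentiated cells that have left the cycle.

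KLF4 and KLF5 rose the most of these factors. Against control, CoCl2 raised KLF4 6.52-fold and KLF5 4.31-fold, and OD raised them 4.86-fold and 1.73-fold. GATA4, already close to the limit of detection, was 8.35-fold lower with CoCl2. HNF4A differed by 1.33-fold with CoCl2 and 1.38-fold with OD, and CDX2 by 1.13-fold and 1.23-fold. GATA6 was 1.33-fold lower with OD. CDX1 had no read in any library.

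A gene was said to rise or fall where the adjusted p of edgeR's quasi-likelihood test was under 0.05, and was called where the change also passed 2-fold. Of the 7 tested factors, CoCl2 against control called 2 higher and 1 lower, where 19.9% and 23.4% of the 15944 tested genes were called. OD against control called 1 higher, against a background of 9.09%. None was called lower with OD by edgeR or DESeq2, where 4.16% of tested genes were, and 1 factor was lower at an unadjusted p under 0.05. CoCl2 against OD called 1 higher and 2 lower, with backgrounds of 17.5% and 23.8%. By the adjusted p alone, 4 rose and 1 fell with CoCl2 (backgrounds 40.4% and 42.8%), 4 rose and 1 fell with OD (32.3% and 33.3%), and in CoCl2 against OD 3 were higher and 3 lower (40.2% and 43.2%). With library size alone these tallies by the adjusted p became 2 higher and 5 lower for CoCl2 against control and 1 higher and 5 lower for CoCl2 against OD. With 7 factors each gene moves such a share widely, so nothing is read from these counts beyond the genes themselves. The 7 had a median of 0.18 for CoCl2 and 0.37 for OD on the log2 scale, and all tested genes had -0.049 and -0.010. With library size alone the CoCl2 median of the 7 was -0.33.

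The libraries held 15998136 to 24209427 counts. The TMM factors, which correct for a shift in composition, were 0.770 to 0.795 with CoCl2 and above 1 in all libraries of the other groups. Scaling by library size alone therefore moved the all-gene median on the log2 scale to -0.55 for CoCl2 against control and -0.60 for CoCl2 against OD, but only to 0.029 for OD against control. Small CoCl2 values below depend on this choice. Counts of gene lists with library size alone carry the same shift of all genes toward lower values with CoCl2. Among all called genes the higher share went from 46.0% to 23.9% against control and from 42.4% to 18.3% against OD. A library reports the average of all its cells, so fewer cells of a type and less RNA per cell cannot be told apart.

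**Figure D1:**
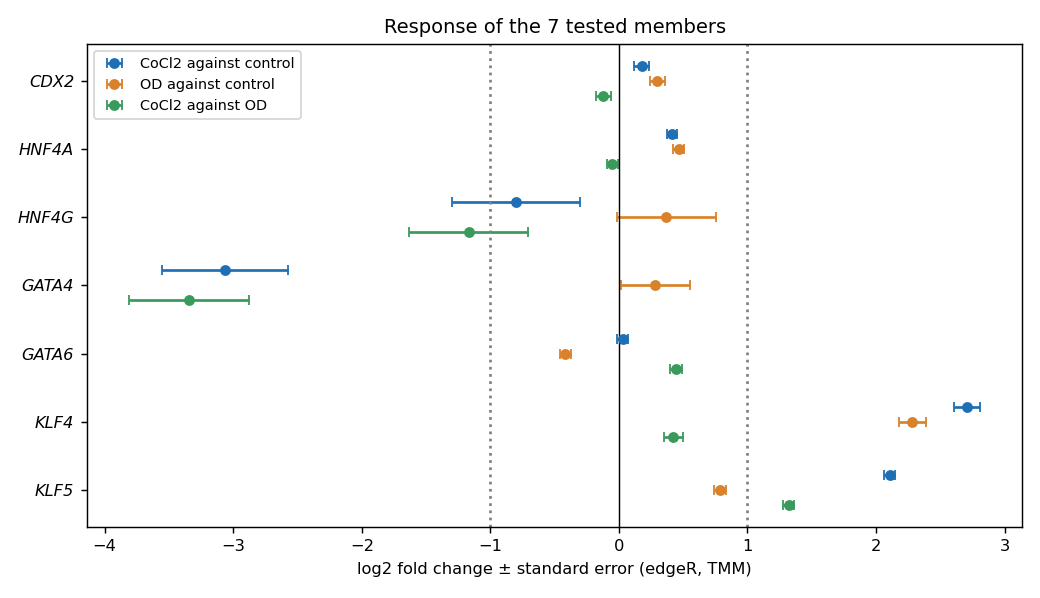
Log2 fold change of the 7 tested factors in 3 comparisons, with standard errors from the edgeR fit on 3 libraries per group and dotted lines at a log2 fold change of 1 in size. KLF4, KLF5 and GATA4 lie past the line for CoCl2 against control and KLF4 alone does so for OD against control. With library size alone, the CoCl2 values of CDX2, HNF4A and GATA6 change sign.

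KLF4, a Krüppel-like factor known for halting the cell cycle, had 3.55, 3.97 and 3.70 CPM (TMM-scaled counts relative to a common library total) in the control libraries. It had 24.5, 24.8 and 24.1 CPM with CoCl2 and 19.5, 18.4 and 16.5 CPM with OD. The 3 groups did not overlap, and both treated groups lay far above control. The fit gave a log2 fold change of 2.71 for CoCl2 (SE 0.103, edgeR adjusted p = 5.80e-34) and 2.28 for OD (SE 0.104, edgeR adjusted p = 7.36e-29). Between the agents KLF4 was 0.42 higher with CoCl2 on the log2 scale (95% interval 0.28 to 0.57, edgeR adjusted p = 9.44e-07), a difference that became -0.12 with library size alone (edgeR adjusted p = 0.127). The order of the agents for KLF4 thus depended on scaling, whereas the rise over control did not.

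KLF5, a factor of proliferating crypt cells, had 88.2, 95.4 and 99.0 CPM in control cells. With CoCl2 it reached 417.6, 407.9 and 391.8 CPM, and with OD 161.2, 160.3 and 166.4 CPM. All CoCl2 libraries lay above all OD libraries, which in turn lay above all control libraries. The log2 fold change was 2.11 with CoCl2 (SE 0.0444, edgeR adjusted p = 8.23e-48). With OD it was 0.79 (SE 0.0448, edgeR adjusted p = 3.98e-24), a rise short of 2-fold. CoCl2 exceeded OD by 1.32 (SE 0.0422, edgeR adjusted p = 7.72e-38), and by 0.77 with library size alone (edgeR adjusted p = 4.51e-22), which is under 2-fold.

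The balance between both Krüppel-like factors needs no scaling between libraries, since it is a ratio of counts in the same library. KLF5 had 24.9, 24.1 and 26.8 reads for each KLF4 read in control cells, 17.1, 16.4 and 16.2 with CoCl2 and 8.25, 8.69 and 10.1 with OD. The groups did not overlap, and OD had the lowest ratio. The log2 ratio differed from control by -0.60 with CoCl2 and by -1.48 with OD, and CoCl2 exceeded OD by 0.89. Each of these had an exact two-sided permutation p of 0.1, the smallest that 3 libraries against 3 allow, and an adjusted p of 0.113 over 9 ratios, so the design could not pass 0.05.

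KLF4 lies at chr9:107484852-107490482 on the minus strand and KLF5 at chr13:73054976-73077541 on the plus strand of GRCh38. A gene on the opposite strand overlaps 9.75% of the exonic bases of KLF4, and the strand setting of the counting is not stated, so reads of that gene could be included. Since both genes rose with both HIF stabilisers, the 250 bases before their RefSeq start sites (GRCh38.p14) are shown, 5′ to 3′ on the strand of the gene. Capitals mark matches to the core of the hypoxia response element (ACGTG or GCGTG, on either strand). KLF5 has a pair of annotated start sites. The windows are chr9:107489770-107490019 for KLF4, chr13:73054726-73054975 for the first KLF5 start and chr13:73058755-73059004 for the second. The KLF4 window and the second KLF5 window lie inside the gene spans given above. Those spans are from GENCODE and reach further upstream than these RefSeq starts.
KLF4: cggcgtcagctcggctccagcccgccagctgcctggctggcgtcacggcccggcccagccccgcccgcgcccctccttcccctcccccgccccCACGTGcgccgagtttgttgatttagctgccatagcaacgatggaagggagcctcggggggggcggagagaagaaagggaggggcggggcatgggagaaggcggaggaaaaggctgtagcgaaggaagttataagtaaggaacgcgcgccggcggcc
KLF5, first start: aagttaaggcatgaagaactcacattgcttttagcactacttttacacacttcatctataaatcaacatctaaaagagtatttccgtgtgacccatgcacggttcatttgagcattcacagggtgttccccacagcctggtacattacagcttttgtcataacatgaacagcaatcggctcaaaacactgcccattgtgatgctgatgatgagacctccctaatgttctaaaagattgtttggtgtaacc
KLF5, second start: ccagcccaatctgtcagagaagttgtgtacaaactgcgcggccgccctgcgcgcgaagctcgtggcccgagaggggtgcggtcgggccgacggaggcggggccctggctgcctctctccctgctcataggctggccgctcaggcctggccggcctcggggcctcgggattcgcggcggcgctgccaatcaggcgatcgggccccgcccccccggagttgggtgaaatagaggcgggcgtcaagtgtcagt

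The KLF4 window held the palindrome CACGTG, which matches the core on both strands. The match on the strand of the gene begins 156 bases before the RefSeq start. Neither KLF5 window held the core. Such a match is common, as 43.2% of 35116 promoter windows of the same length contain at least 1. Promoter windows were found for 5 of the 8 factors, and the windows of CDX2, HNF4A and GATA6 held no core. A heat-shock element (GAANNTTC, in 5.78% of windows) was in none of the 7 windows, and an antioxidant response element (TGACNNNGC, in 10.9% of windows) was in the CDX2 window only, 160 bases before the start. These are matches of letters and not sites of binding. The windows differed in base composition, with 69.2% G and C for KLF4, 40.8% for the first and 70.8% for the second KLF5 start.

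**Figure D2:**
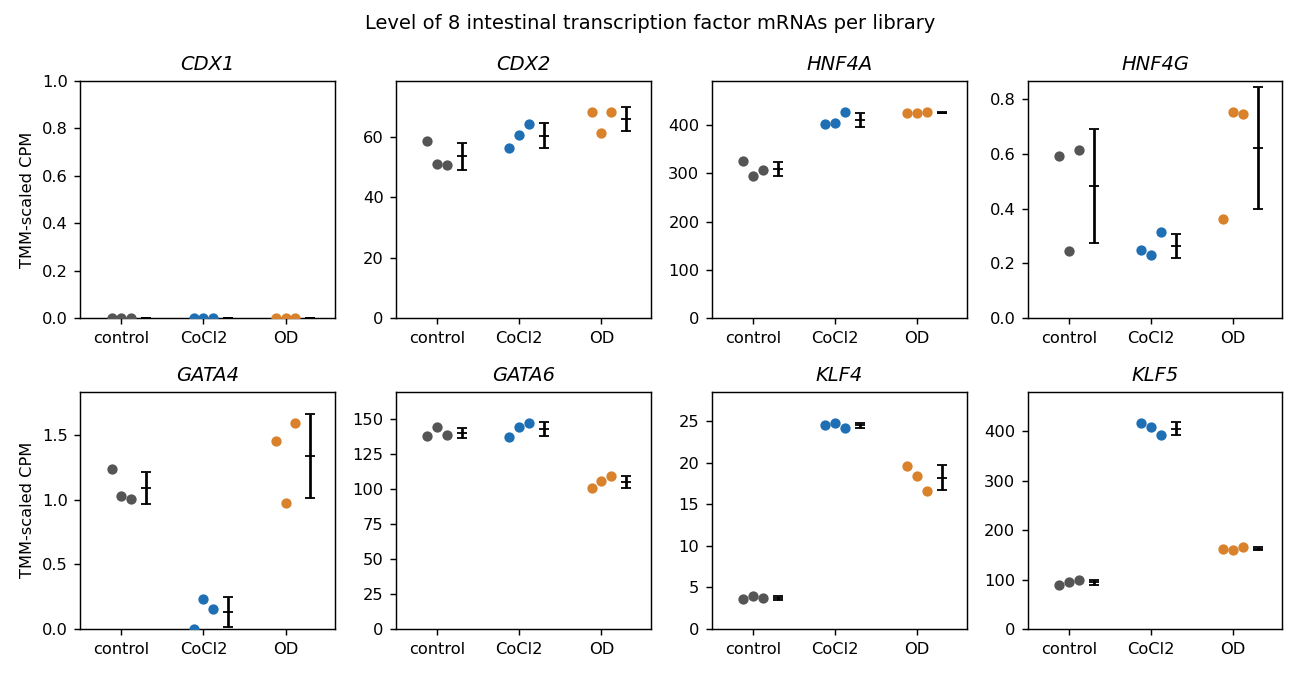
TMM-scaled CPM of the 8 factors in each of 9 libraries, with a separate linear axis from 0 for each gene. Points are libraries and bars show the mean ± SD of 3 libraries. KLF5 forms 3 separate steps, GATA4 drops toward 0 with CoCl2 and CDX1 is at 0 throughout.

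CDX2, the homeobox factor that commits gut endoderm to an intestinal fate, is on the minus strand at chr13:27960918-27969315. It had 58.8, 51.1 and 50.9 CPM in control cells, 56.4, 60.7 and 64.5 CPM with CoCl2 and 68.3, 61.5 and 68.2 CPM with OD. The OD libraries lay above all control libraries, while CoCl2 libraries overlapped both other groups. CDX2 rose with OD by 0.30 on the log2 scale (SE 0.0572, edgeR adjusted p = 6.50e-06). With CoCl2 the log2 fold change was 0.18 (SE 0.0593, edgeR adjusted p = 0.00517), but it was -0.33 with library size alone (edgeR adjusted p = 5.28e-06), so its direction depended on scaling. It also did not pass the test without the count filter (0.11, edgeR adjusted p = 0.106), without control replicate 3 (0.14, adjusted p = 0.0540) or without CoCl2 replicate 3 (0.13, adjusted p = 0.0676). The difference of CoCl2 from OD was small (log2 fold change -0.12, SE 0.0576, edgeR adjusted p = 0.0467), with a DESeq2 adjusted p of 0.172, and -0.67 with library size alone (edgeR adjusted p = 7.53e-14).

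CDX1, the other intestinal CDX factor, at chr5:150166778-150184558, had 0 counts in all 9 libraries. A count of 0 allows up to 3 counts in a library, or 0.133 to 0.232 CPM. CDX1 was therefore not detectable at this depth in any group, and no fold change can be given. CDX2 was thus the only CDX factor of the intestine with reads here.

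HNF4A, the nuclear receptor that governs many enterocyte genes, lies at chr20:44355699-44432845 and had the most reads of the 8 factors in control and OD libraries. It had 324.5, 294.7 and 306.4 CPM in control cells, 401.5, 403.1 and 426.8 CPM with CoCl2 and 424.3, 425.5 and 426.4 CPM with OD. Both treated groups lay above control and overlapped each other. HNF4A rose with OD by 0.46 on the log2 scale (SE 0.0403, edgeR adjusted p = 5.84e-16). With CoCl2 the value was 0.41 (SE 0.0406, edgeR adjusted p = 2.57e-14), and -0.092 with library size alone (edgeR adjusted p = 0.0259). The difference between CoCl2 and OD was -0.051 with a 95% interval from -0.13 to 0.028 (edgeR adjusted p = 0.231), and it was -0.60 with library size alone (edgeR adjusted p = 5.64e-19).

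HNF4G, the HNF4 paralog of the gut, lies at chr8:75407914-75566834 and was sparse. Control libraries held 11, 5 and 11 counts, CoCl2 libraries 4, 3 and 6, and OD libraries 8, 17 and 14. Control overlapped both treated groups, and CoCl2 lay below OD. Neither agent differed from control by edgeR, with log2 fold changes of -0.80 for CoCl2 (SE 0.497, adjusted p = 0.129) and 0.37 for OD (SE 0.385, adjusted p = 0.410). With CoCl2 the call appeared without control replicate 2 (-1.15, edgeR adjusted p = 0.0389) and with library size alone (-1.30, edgeR adjusted p = 0.0142).

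CoCl2 lay below OD for HNF4G (log2 fold change -1.17, SE 0.461, edgeR adjusted p = 0.0171), or 13 counts against 39. The ratio of these sums was 2.28-fold lower, with an exact binomial 95% interval of 1.19 to 4.65 that covers counting error only. The call was lost without CoCl2 replicate 1 (-1.11, edgeR adjusted p = 0.0513), without OD replicate 2 (-0.99, adjusted p = 0.0803) or without OD replicate 3 (-1.04, adjusted p = 0.0602), and with DESeq2 (adjusted p = 0.123). In a fit of the 6 CoCl2 and OD libraries alone HNF4G did not pass the count filter. HNF4G is thus a call at the edge of what these depths resolve.

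Within a library, HNF4A had 549.0, 1204 and 497.3 reads for each HNF4G read in control cells, 1616, 1739 and 1358 with CoCl2 and 1170, 564.8 and 572.9 with OD. CoCl2 libraries lay above the others. The log2 ratio exceeded control by 1.10 and OD by 1.00 (exact permutation p = 0.1 each, the smallest possible). With 5 added to each count these differences were 0.72 and 0.46, so their sizes rest on few HNF4G reads. OD and control overlapped (difference 0.096, exact permutation p = 0.5), and the sign of that difference changed on leaving out control replicate 1 (-0.056), control replicate 3 (-0.13) or OD replicate 1 (-0.24).

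GATA4, the proximal intestinal GATA factor, lies at chr8:11676959-11760002. Its counts were 23, 21 and 18 in control libraries, 0, 3 and 3 with CoCl2 and 32, 22 and 30 with OD. Every CoCl2 library lay below every library of the other groups, while control and OD overlapped. Summed over 3 libraries, CoCl2 had 6 counts and control 62, a ratio 8.74-fold lower with an exact binomial 95% interval of 3.80 to 24.7 for counting error. Against the 84 counts with OD it was 10.6-fold lower (4.68 to 29.8).

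By edgeR, GATA4 fell with CoCl2 (log2 fold change -3.06, SE 0.491, adjusted p = 8.60e-08) and was lower than with OD (log2 fold change -3.34, SE 0.463, adjusted p = 2.01e-09). With OD against control it was 0.28 (95% interval -0.25 to 0.81, edgeR adjusted p = 0.364). These fits rest on at most 3 counts per CoCl2 library, so the size is poorly fixed although the direction is the same with every scaling.

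GATA6, the more abundant GATA factor of the epithelium, lies at chr18:22169589-22202528. It had 138.1, 144.2 and 138.5 CPM in control cells, 137.3, 144.5 and 147.5 CPM with CoCl2 and 100.8, 105.6 and 109.2 CPM with OD. OD libraries lay below all others, and control and CoCl2 overlapped. GATA6 fell with OD (log2 fold change -0.42, SE 0.0449, edgeR adjusted p = 1.71e-12). It was the only tested factor that fell with OD at this threshold. With CoCl2 the value was 0.029 (95% interval -0.059 to 0.12, edgeR adjusted p = 0.553), and -0.48 with library size alone (edgeR adjusted p = 3.26e-13). The difference of CoCl2 from OD was 0.45 (SE 0.0453, edgeR adjusted p = 9.10e-14) and -0.10 with library size alone (edgeR adjusted p = 0.0402).

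Per library, GATA6 had 111.8, 140.3 and 137.4 reads for each GATA4 read in control cells and 69.4, 108.3 and 68.5 with OD. With CoCl2 it had 623.3 and 939.0 in the libraries with GATA4 reads, and no ratio in the library without. The log2 ratio with 0.5 added to each count differed from control by 3.30 with CoCl2 and by -0.68 with OD, and CoCl2 exceeded OD by 3.98 (exact permutation p = 0.1 each, the smallest possible). Leaving out single libraries kept these directions, but the sizes rest on few GATA4 reads. Without CoCl2 replicate 1 the CoCl2 differences were 2.38 from control and 3.06 from OD, and with 5 added to each count they were 1.68 and 2.29.

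GATA6-AS1, an antisense transcript that shares 94 exonic bases with GATA6, was 17.0 ± 1.04 CPM in control cells, 16.9 ± 1.59 CPM with CoCl2 and 16.5 ± 0.599 CPM with OD (SD, n = 3). It differed from control by -0.0028 with CoCl2 and -0.049 with OD on the log2 scale (edgeR adjusted p = 0.976 and 0.607). Of the exonic bases of GATA6, 10.9% overlap other genes. HNF4A-AS1, which shares no exonic base with HNF4A, was called higher with CoCl2 (log2 fold change 2.88, SE 0.380, edgeR adjusted p = 4.83e-10), from 2 to 6 counts in control libraries to 19 to 33. With OD it again had 2 to 6 counts. Of 8 antisense symbols sought, these 2 were in the table.

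**Figure D3:**
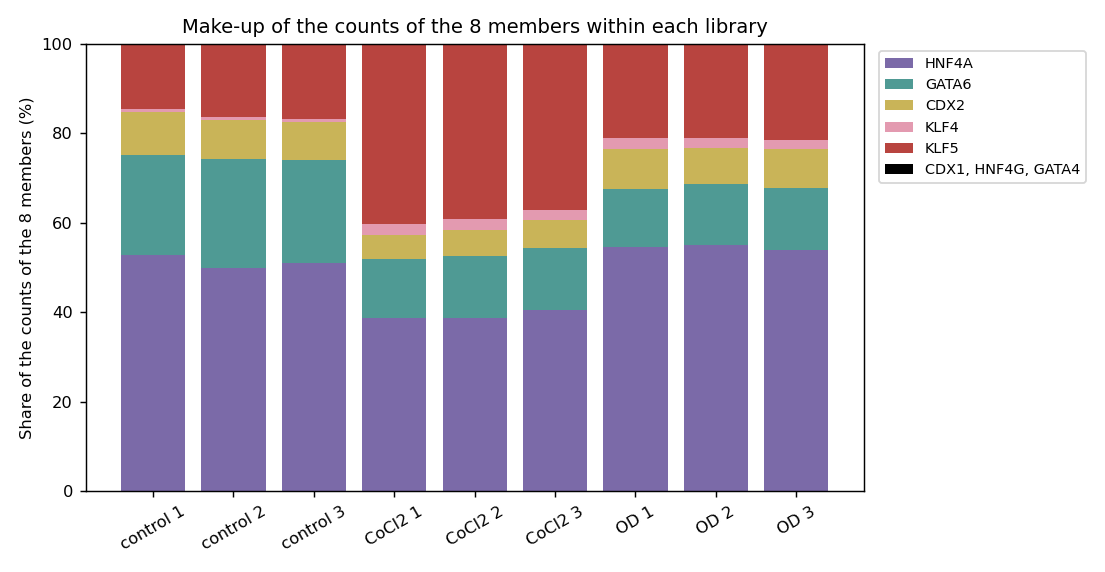
Share of each factor in the summed counts of the 8 factors, in percent, for each of the 9 libraries. KLF5 takes 37.1% to 40.3% with CoCl2 against 14.3% to 16.5% in control, and the band of GATA6 is narrower in all treated libraries.

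The make-up of the whole set within each library is also free of scaling between libraries. In control cells HNF4A took 49.9% to 52.8% of the summed counts, GATA6 22.5% to 24.4%, KLF5 14.3% to 16.5%, CDX2 8.47% to 9.57% and KLF4 0.577% to 0.671%. With CoCl2, KLF5 took 37.1% to 40.3%, close to HNF4A at 38.7% to 40.4%, while GATA6 took 13.2% to 14.0% and CDX2 5.44% to 6.11%. With OD, HNF4A took 54.0% to 55.0%, KLF5 20.7% to 21.1%, GATA6 12.99% to 13.8% and CDX2 7.95% to 8.81%. KLF4 took 2.29% to 2.38% with CoCl2 and 2.095% to 2.52% with OD, ranges that overlap each other and not control. Shares within a set are tied together, so the rise of one lowers the others.

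To order the factors by level, CPM were divided by the length of all annotated exons in kb. In control cells the order was GATA6 at 36.9 ± 0.897, HNF4A at 30.3 ± 1.47, KLF5 at 25.6 ± 1.496, CDX2 at 15.2 ± 1.29, KLF4 at 1.02 ± 0.0580, GATA4 at 0.245 ± 0.0284 and HNF4G at 0.101 ± 0.0433 CPM per kb (SD, n = 3). No neighbours in this order overlapped between libraries. With CoCl2, KLF5 led at 110.3 ± 3.55, then HNF4A at 40.4 ± 1.39, GATA6 at 37.7 ± 1.37, CDX2 at 17.2 ± 1.146 and KLF4 at 6.68 ± 0.0908 CPM per kb, none of which overlapped, while HNF4G and GATA4 overlapped at the bottom. With OD, KLF5 at 44.2 ± 0.8998 and HNF4A at 41.8 ± 0.106 led, ahead of GATA6 at 27.7 ± 1.12, CDX2 at 18.8 ± 1.12, KLF4 at 4.96 ± 0.416, GATA4 at 0.302 ± 0.0730 and HNF4G at 0.129 ± 0.0465 CPM per kb, again with no overlap of neighbours. The summed exons of HNF4A are 10167 bases long, against 1775 to 4797 for the others, so these levels depend on which transcripts the cells make, which was not tested.

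The other genes of the CDX, GATA and KLF families were 21, of which 12 were tested. With CoCl2, 5 were called higher and none lower by edgeR or DESeq2, with edgeR backgrounds of 19.9% and 23.4%. Library size alone called 2 higher and 2 lower. By the adjusted p alone 7 rose and 1 fell (6 and 4 with library size alone). The TMM backgrounds by that threshold were 40.4% and 42.8%. KLF9, a factor induced by glucocorticoids, rose by 2.72 on the log2 scale from 0.314 ± 0.0904 to 2.14 ± 0.698 CPM. KLF6 rose by 1.88 from 160.1 ± 12.8 to 591.2 ± 23.4 CPM. GATA2, a factor of blood progenitors, rose by 1.48 with CoCl2 and by 1.41 with OD (SD, n = 3, edgeR adjusted p at most 5.87e-11 for each of these).

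With OD, 2 of the 12 were called higher, and none lower by edgeR or DESeq2, nor at an unadjusted p under 0.05. The edgeR backgrounds were 9.09% and 4.16%. KLF2, a factor known from endothelium, rose by 1.44 (SE 0.390, edgeR adjusted p = 9.93e-04), from 4 to 7 counts in control libraries to 12 to 22. The 12 had a median of 0.74 for CoCl2 and 0.55 for OD on the log2 scale. Between the agents, KLF9 and KLF6 were 1.85 and 1.48 higher with CoCl2 and KLF12 was lower (-1.04, edgeR adjusted p at most 3.34e-08). KLF4 and KLF5 were thus not the only Krüppel-like genes that rose with CoCl2.

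Other intestinal transcription factors were 25, with 22 tested. With CoCl2, 5 were called higher and 3 lower (4 and 8 with library size alone), with a median of -0.22. The backgrounds were 19.9% and 23.4%. The epithelial ETS factors EHF and ELF3 rose by 2.38 and 1.93 and NR5A2, a nuclear receptor of crypt cells, by 1.83. EHF was sparse, with 7 to 13 counts per control library and 31 to 51 with CoCl2. ASCL2, a stem cell factor, and the vitamin D receptor VDR fell, with log2 fold changes of -2.098 and -1.999 (edgeR adjusted p at most 3.37e-20 for these falls). With OD, 5 were called higher and 1 lower (backgrounds 9.09% and 4.16%), with a median of 0.33. SPDEF, a goblet cell factor, rose by 2.28, CREB3L3 by 1.47 and ELF3 by 1.13, and the pioneer factor FOXA1 fell by 1.48. SPDEF had only 4 to 6 counts per control library and 22 to 31 with OD. CoCl2 against OD called 2 higher (EHF by 2.81, PRDM1 by 1.52) and 7 lower, with backgrounds of 17.5% and 23.8%. Among the 7 were SPDEF at -3.57, VDR at -2.35 and TFCP2L1 at -1.90. With library size alone 1 was higher and 11 lower. SPDEF had 1 to 2 counts per CoCl2 library and EHF 5 to 12 per OD library, so the sizes for these genes are poorly fixed.

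**Figure D4:**
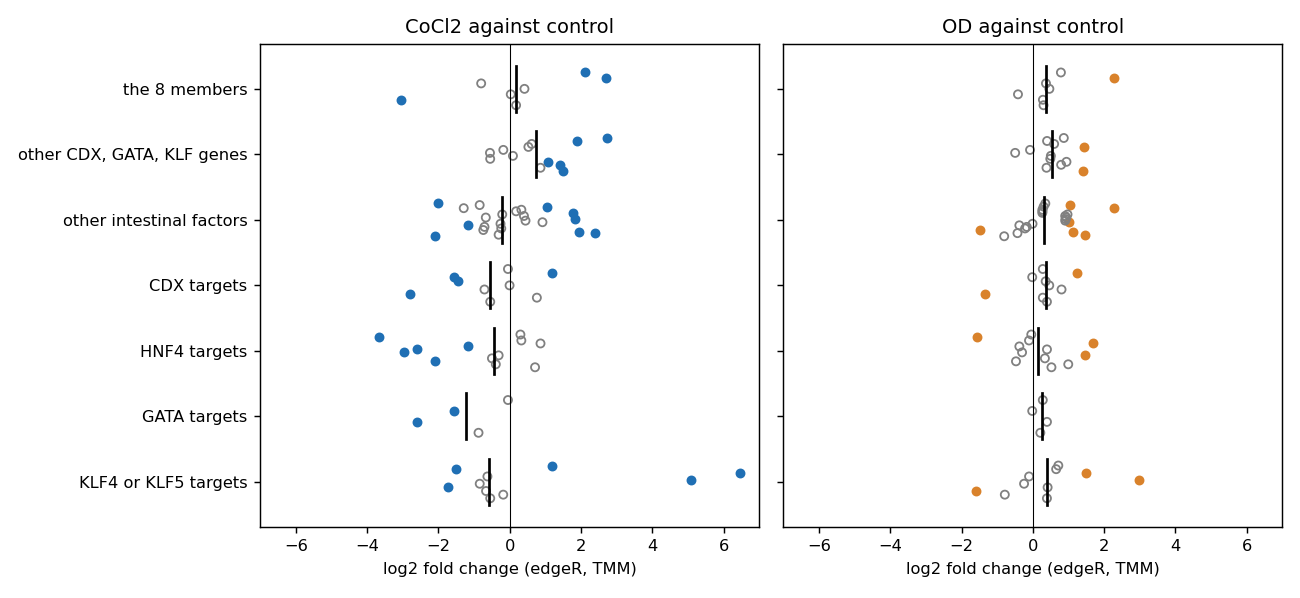
Log2 fold change of each tested gene in 7 lists, for CoCl2 against control and OD against control, from the edgeR fit on 3 libraries per group. Filled points are called, open points are not, and black bars mark medians. The median of the HNF4 targets is -0.44 with CoCl2 and 0.15 with OD, and that of all tested genes is -0.049 and -0.010.

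Known target genes of each family were taken next, in lists that share members. Of 9 tested CDX targets, CoCl2 called 1 higher and 3 lower (median -0.55, or 0 and 5 calls with library size alone). The backgrounds over all tested genes were 19.9% and 23.4%. OD called 1 higher and 1 lower (median 0.36), with backgrounds of 9.09% and 4.16%. By the adjusted p alone 2 rose and 5 fell with CoCl2 (backgrounds 40.4% and 42.8%), and 6 rose and 1 fell with OD (32.3% and 33.3%). With so few genes per list, nothing is read from the counts of these target lists. MEP1A, a brush border protease, rose by 1.20 with CoCl2 and 1.23 with OD. CLDN2, a pore-forming tight junction protein, fell with both, at -2.81 and -1.33. Lactase (LCT) and the keratin KRT20 fell with CoCl2, at -1.55 and -1.44. Against OD, CoCl2 called 4 lower (background 23.8%), with KRT20 at -1.80, LCT at -1.54 and the guanylate cyclase GUCY2C at -1.51. None was called higher by edgeR or DESeq2 in that comparison. By the adjusted p alone 1 was higher and 6 lower than with OD (0 and 8 with library size alone). The TMM backgrounds by that threshold were 40.2% and 43.2%. CDX2 itself differed by 0.18 in the first of these comparisons and -0.12 in the last.

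Of 12 tested HNF4 targets, 5 were called lower with CoCl2 (median -0.44) and none higher by edgeR or DESeq2. The edgeR backgrounds were 23.4% and 19.9%. By the adjusted p alone 4 rose, all short of 2-fold, and 6 fell (1 and 10 with library size alone). The TMM backgrounds by that threshold were 40.4% and 42.8%. The glucose transporter gene SLC2A2 fell by 3.68 on the log2 scale, from 6.19 ± 0.287 to 0.468 ± 0.159 CPM. F7, which encodes a clotting factor, fell by 2.97, from 12.1 ± 2.38 to 1.5 ± 0.304 CPM, and FABP1, a fatty acid carrier, fell by 2.59, from 31.1 ± 2.57 to 5.12 ± 0.285 CPM (SD, n = 3). HNF4A did not fall in the same libraries under TMM scaling, as given above, and was -0.092 with library size alone. With OD, 2 were called higher and 1 lower (median 0.15, backgrounds 9.09% and 4.16%). MTTP, which loads lipid on lipoproteins, rose by 1.70, and SLC2A2 fell by 1.57. MTTP was sparse, with 8 to 10 counts per control library and 19 to 45 with OD. Against OD, CoCl2 called 6 lower (median -1.11, background 23.8%), with FABP1 at -2.99, F7 at -2.67 and SLC2A2 at -2.11. With library size alone 6 were lower against control (median -0.95) and 9 against OD (median -1.65). Against OD none was called higher by edgeR or DESeq2. By the adjusted p alone 3 were higher and 9 lower than with OD, with backgrounds of 40.2% and 43.2%. With library size alone these counts were 0 and 12, where the all-gene median was -0.60.

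Of 4 tested GATA targets, CoCl2 called 2 lower against control, FABP1 and LCT, and 3 lower against OD, with adenosine deaminase (ADA) at -1.09 beside them. The backgrounds were 23.4% and 23.8%. None of the 4 was higher in these comparisons by edgeR or DESeq2, nor at an unadjusted p under 0.05. The edgeR backgrounds of genes called higher were 19.9% and 17.5%. With OD against control none was called by either tool, with edgeR backgrounds of 9.09% and 4.16%. By the adjusted p alone 2 were higher and none lower with OD (backgrounds 32.3% and 33.3%). Their median was -1.21 with CoCl2 and 0.24 with OD. FABP1 and LCT also stand in the other target lists, so these counts are not separate evidence.

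All 10 KLF4 or KLF5 targets were tested. CoCl2 called 3 higher and 2 lower (median -0.59), with backgrounds of 19.9% and 23.4%. With library size alone 2 were higher and 6 lower (median -1.09). OD called 2 higher and 1 lower (median 0.40), with backgrounds of 9.09% and 4.16%. The list pools targets of both factors, so its median is not read for either. The cyclin-dependent kinase inhibitor genes CDKN1C and CDKN1A, the latter a known KLF4 target, rose by 6.46 and 5.09 with CoCl2 and by 1.49 and 2.98 with OD. CDKN1A went from 4.08 ± 0.416 CPM in control cells to 139.0 ± 4.30 CPM with CoCl2 and 32.1 ± 3.15 CPM with OD (SD, n = 3). The growth factor gene PDGFA, a KLF5 target, rose by 1.19 with CoCl2. Cyclin D1 (CCND1), also known as a KLF5 target, fell by 1.74 and the receptor EGFR fell by 1.52 with CoCl2, and cyclin B1 (CCNB1) fell by 1.60 with OD. Against OD, CoCl2 called CDKN1C and CDKN1A higher by 4.97 and 2.11 and EGFR and CCND1 lower, at -2.17 and -2.16. The backgrounds were 17.5% and 23.8%. With library size alone 2 were higher and 5 lower.

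The label of the cells was compared with marker genes. Summed over 10 markers of intestinal epithelium, the level was 10344 to 10798 CPM in control, 12317 to 13197 with CoCl2 and 9857 to 10381 with OD, most of it from the keratins KRT8 and KRT18. These TMM-scaled sums mainly follow the keratins and say little on the other markers. LGALS4, a defining galectin, had 5 to 9 counts in control libraries. GPA33, which was not tested, had 0 to 2 counts in control libraries, 0 to 1 with CoCl2 and 10 to 15 with OD. Of the 9 tested, CoCl2 called 1 higher, LGALS4 with 6 to 33 counts per CoCl2 library, and 3 lower (backgrounds 19.9% and 23.4%). By the adjusted p alone 6 rose and 3 fell, and the adhesion molecules CDH17, EPCAM and CDH1 and the keratins KRT8 and KRT18 rose by 0.76, 0.36, 0.28, 0.35 and 0.26 on the log2 scale. With library size alone, 1 rose and 7 fell. The TMM backgrounds by the adjusted p alone were 40.4% and 42.8%. Villin (VIL1) fell by 2.45 with CoCl2, from 611.9 to 112.0 CPM, and KRT20 fell by 1.44. PHGR1 was at -1.80 with CoCl2 and -1.02 with OD. For CoCl2 against OD, 2 were called lower, VIL1 at -2.02 and KRT20 at -1.80 (background 23.8%). None was called higher there by edgeR or DESeq2. By the adjusted p alone 4 were higher and 4 lower than with OD (0 and 6 with library size alone). The TMM backgrounds for that were 40.2% and 43.2%. No marker was called higher with OD by edgeR (background 9.09%), where DESeq2 called 2. By the adjusted p alone 3 rose and 3 fell with OD (backgrounds 32.3% and 33.3%).

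Foregut markers, which CDX2 is known to hold down, summed to 33.6 to 37.5 CPM over 8 genes in control, 18.7 to 19.9 with CoCl2 and 22.4 to 25.8 with OD. BARX1, a stomach factor, was at 0 in all libraries. SOX2, the foregut factor, fell with both agents (log2 fold changes -2.77 and -2.08), from 22.6 ± 1.61 to 3.28 ± 0.229 and 5.33 ± 0.316 CPM (SD, n = 3). MUC5AC, a gastric mucin, fell by 1.47 with CoCl2, and TFF1, a gastric peptide, rose by 1.97 and 1.76. Most of the control sum was SOX2, so the fall of the sums mainly follows that gene. Of the 5 tested, CoCl2 called 1 higher and 2 lower (backgrounds 19.9% and 23.4%). OD called 1 higher and 1 lower (9.09% and 4.16%). By the adjusted p alone 1 rose and 3 fell with CoCl2 (backgrounds 40.4% and 42.8%). With OD 3 rose and 2 fell by that threshold (32.3% and 33.3%). Between the agents none of the 5 tested was called by edgeR with TMM scaling or by DESeq2. By the adjusted p alone 4 were lower with CoCl2 (background 43.2%), and TFF1 was higher only at an unadjusted p under 0.05. With library size alone, edgeR called 4 of them lower with CoCl2 than with OD.

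Markers of stroma, endothelium and blood cells summed to 21.2 to 24.3 CPM over 9 genes in control, 19.6 to 23.2 with CoCl2 and 28.3 to 29.7 with OD, mainly from the collagens COL1A1 and COL3A1. The endothelial gene VWF was called higher with CoCl2 (6 to 8 counts in control libraries, 16 to 20 with CoCl2), the only call among 4 tested against control. The backgrounds were 19.9% and 23.4% with CoCl2 and 9.09% and 4.16% with OD. Against OD, VWF and COL3A1 were 1.13 and 1.09 higher and COL1A1 was lower, at -1.08 (backgrounds 17.5% and 23.8%). With library size alone 2 were lower and none higher by edgeR. DESeq2 called 2 higher and 2 lower, the counts also found by the adjusted p alone in edgeR with TMM scaling (backgrounds 40.2% and 43.2%). The culture was of the single line Caco-2, and the source of these reads was not tested.

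**Figure D5:**
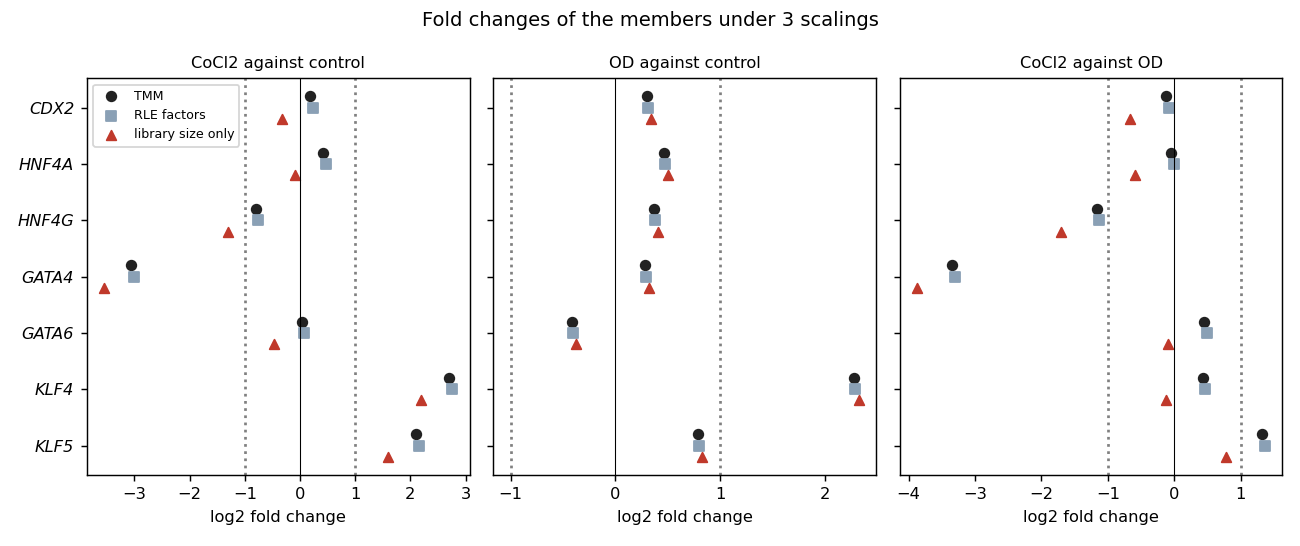
Log2 fold change of the 7 tested factors in 3 comparisons with TMM factors, RLE factors or library size alone, with dotted lines at 1 in size. In the panels with CoCl2 the values with library size alone lie to the left, so that CDX2, HNF4A and GATA6 change sign against control and KLF4 and GATA6 change sign against OD, while the panel of OD against control hardly moves.

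Genes with the most similar pattern were sought for each factor by Pearson's r of log2 CPM over the 9 libraries, among the 10427 tested genes whose mean reached 5 CPM. KLF5 was most like ARF4, PALLD and TRIB1 (r = 0.999 each) and KLF4 most like BNIP3L (r = 0.999), DUSP5 and SERPINE2 (r = 0.998 each). HNF4A was most like TRIB3 (r = 0.994), MEP1A (r = 0.993) and TESK2 (r = 0.991), and GATA6 most like GFM2 (r = 0.990), MRFAP1 and KCTD20 (r = 0.989 each). GATA4 was most like PDE6D (r = 0.990), SUPT3H (r = 0.986) and PRPSAP1 (r = 0.985). These values describe 3 groups rather than 9 separate conditions, and high ones are common. An r above 0.9 was reached by 20.4% of the genes for KLF5, 14.5% for GATA4, 7.04% for KLF4, 5.33% for GATA6 and 3.94% for HNF4A. CDX2, most like SMIM29 (r = 0.936), BMF (r = 0.925) and GALM (r = 0.921), had 0.0767% above that level. HNF4G, most like BDH2 and UPRT (r = 0.881 and 0.880) and C15orf41 (r = 0.849), had none.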

How the data were processed

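Messenger RNA of 9 uCaco-2 libraries, 3 biological replicates per group by the study's methods, was analysed. The authors checked reads with FastQC 0.11.9, trimmed them with cutadapt 2.10, mapped them with STAR 2.7.5b on GRCh38.p13 and counted them on genes of GENCODE release 34 (tools per the submitters' notes). The deposited values are whole-number counts per gene symbol with no normalization. The counting tool, its strand setting and its treatment of reads that match several genes are not given in the sources used here. No column of a sample was left unused.

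The counts were fitted in R 4.3.3 with edgeR 4.0.16. After filterByExpr, 15944 of 60591 symbols were tested with TMM scaling and robust quasi-likelihood dispersions, all 9 libraries entering 1 model. The 3 comparisons were adjusted by Benjamini-Hochberg over all tested genes. A call required a change of over 1 on the log2 scale as well as an adjusted p below 0.05. CPM denote TMM-scaled counts. Ratios of paralogs used log2 of counts with 0.5 added and exact two-sided permutation tests, adjusted over 9 ratios. The CDX2 to CDX1 ratio was planned and not computed, because CDX1 had no count. Replicates of a group differed beyond sampling noise (chi-square per degree of freedom 1.82 to 3.32). Binomial intervals of summed counts and limits from counts of 0 describe counting error alone, as the methods name no molecular identifiers. Standard errors were computed as the size of the log2 fold change over the square root of edgeR's F statistic. Intervals of log2 fold changes come from these standard errors. For CoCl2 against control DESeq2 gave larger ones for the sparse GATA4 (0.709 against 0.491) and HNF4G (0.687 against 0.497). For HNF4A they were 0.0399 and 0.0406. Depth was 15998136 to 24209427 counts, which gave a standard error of 0.497 on the log2 scale for HNF4G and 0.0406 for HNF4A with CoCl2.

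The 8 members and the gene lists were chosen with earlier results of these data known. Named are all members, up to 3 called rises and 3 called falls of largest size per list and comparison, and the 3 genes most like each tested member. The values of 1 gene under this rule are not reported here. GATA6-AS1, BARX1, GPA33, KRT8, KRT18, CDH17, EPCAM and CDH1 are named beside this rule, chosen after their values were seen. Alternatives were RLE factors, library size alone, no count filter, DESeq2 1.42.0, each comparison's own 6 libraries, a replicate block, glmTreat, another pseudocount for ratios, and each replicate left out in turn. Only the edgeR fit of CoCl2 against control was tested on simulated data, with changes set in genes above the levels of GATA4 and HNF4G. The simulation did not cover the shift in composition with CoCl2, the ratios or the binomial intervals. Gene positions and exon lengths came from GENCODE release 44 on GRCh38, and promoter sequences from RefSeq (GRCh38.p14).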

Additional observations from a re-analysis of the deposited data

How the results depend on the processing

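Counts of called factors stayed within 1.5 times of 3, 1 and 3 for CoCl2 against control, OD against control and CoCl2 against OD under all alternatives run. With RLE factors none of the 21 single values changed its call or direction. Library size alone reversed 5. For CoCl2 against control, CDX2 became -0.33, HNF4A -0.092 and GATA6 -0.48 on the log2 scale. For CoCl2 against OD, GATA6 became -0.10 and KLF4 -0.12. It also lowered KLF5 for CoCl2 against OD to 0.77. Library size alone moved the share of higher genes among all called genes from 46.0% to 23.9% for CoCl2 against control, from 42.4% to 18.3% for CoCl2 against OD and from 68.6% to 72.7% for OD against control. Without the count filter GATA6 became -0.037 for CoCl2 against control, where it had not passed the test. glmTreat and DESeq2 each lost 1 call, HNF4G for CoCl2 against OD, and the fit on a comparison's own 6 libraries called 2 there because HNF4G was filtered out. Leaving out replicates changed calls of HNF4G only, as given above. The log2 ratio of HNF4A to HNF4G for OD against control ranged from -0.24 to 0.47 with 1 replicate left out. With the replicate block, 3, 1 and 3 factors were called, and no member changed its call. Over all genes 6901, 2115 and 6568 were called with the block, against 6891, 2113 and 6580. Deviations of libraries with the same number correlated at -0.087 to 0.20, and 5 of 9 libraries correlated best with their own number, so the numbers were not taken to pair the samples. Depth limits GATA4, HNF4G and CDX1.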
